A study of Drosophila melanogaster with 4 samples.

Results

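Msp300, sls, bt, Unc-89, Zasp52 and Zasp66 encode very large proteins of the muscle sarcomere and proteins of its Z-disc. These 6 genes were taken by symbol from the 16727 genes of a count table of whole Drosophila melanogaster embryos. All 6 were in the table and among the 11562 genes that passed the filter on low counts. The current annotation calls Unc-89 Obsc. RNA-seq gave 4 libraries, with 2 replicates in each of the groups H3.2-WT and H3.2-K4R. Below, the value of replicate 1 always stands before that of replicate 2. Embryos of both groups were homozygous for deltaHisC, a deletion of the replication-dependent histone gene cluster, and both were picked by GFP at an age of 16 to 18 h at 25 °C. In both, 12 transgenic copies supplied the histone genes, with wild-type histone H3.2 in H3.2-WT and with arginine at lysine 4 of H3.2 in H3.2-K4R. Genes for the variant histone H3.3 lie elsewhere and are not removed by this deletion. Counts per gene cannot show the amino acid change, so they do not check the genotype labels. No label says that replicates came from separate egg collections, so the spread behind the p-values may be technical only.

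A sarcomere is the repeating contractile unit of striated muscle. Thin filaments of actin are anchored in Z-discs at its ends, thick filaments of myosin lie in its middle, and long elastic proteins built from immunoglobulin and fibronectin repeats tie the filaments to the Z-disc. Late embryos build the first sarcomeres of the larval body wall muscles. The methyl mark on lysine 4 of histone H3 lies on active genes, and the comparison addresses the part this lysine plays in the expression of genes.

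Across the members, 0 of 6 passed the test between groups (quasi-likelihood test of edgeR, with p adjusted by Benjamini-Hochberg, under 0.05), where 0.588% of all tested genes passed in either direction. At an unadjusted p under 0.05, Msp300 and sls were higher in H3.2-K4R and 0 members were lower, against 7.68% higher and 9.20% lower among all tested genes. DESeq2 called 1 of the 6, Msp300, and 665 of the 11562 tested genes. With limma-voom 0 of the 6 and 173 of the tested genes were called. With any 1 of the 4 libraries left out, edgeR called 0 of 6. Fold changes were above 0 in 5 of 6 members, with a median of 0.28 on the log2 scale, and in 48.1% of all tested genes, whose median was -0.02. The 3 genes with the longest exon totals had the 3 largest fold changes. The values came from whole embryos, in which a change in the number of muscle cells and a change in the RNA per muscle cell cannot be told apart.

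The exon totals of the members spanned 2812 to 69801 bases. Msp300 (chromosome 2L, 5100877 to 5206993 in build dm6, plus strand) had 69801 exonic bases in 36 merged exons, the second longest total among the tested genes. Its 11 transcripts in the Ensembl annotation run from 2610 to 43121 bases and encode proteins of 407 to 13540 residues, so the exon total exceeds any single transcript. The gene sls (3L, 2039681 to 2115611, minus strand) had 58996 bases in 42 exons, and 13 transcripts that encode 4796 to 18468 residues. For bt (chromosome 4, 724400 to 776474, plus strand) the total was 28019 bases in 49 exons, and its 5 transcripts encode 8408 to 8933 residues. Unc-89 (2R, 23995543 to 24014254, minus strand) had 13261 bases in 39 exons and proteins of 3310 to 4218 residues. Zasp52 (2R, 15762565 to 15817004, minus strand) had 10771 bases in 22 exons, and its 22 transcripts encode 233 to 2194 residues. Zasp66 (3L, 8624371 to 8638813, plus strand) was the short member, with 2812 bases in 12 exons and 12 transcripts that encode 135 to 430 residues. The table sums all exons of a gene, so a shift between isoforms of sls, Msp300 or Zasp52 is not visible in it. Of the exonic bases of the members, 266 in Msp300 were shared with other genes on the same strand and 0 in the other members.

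Sequencing depth was 33882742 to 45509930 counted read pairs per library. Over all tested genes 48 passed the test as higher and 20 as lower in H3.2-K4R, which is 0.415% and 0.173%. Log2 levels, in counts scaled to the size of the library (CPM), correlated across genes with r = 0.967 within H3.2-WT and 0.952 within H3.2-K4R, against 0.931 to 0.958 between groups. H3.2-K4R replicate 2 stood apart, at 75.8 on the first principal component against -45.5 to 0.691 for the other libraries, and the fold changes of Msp300, sls and bt are therefore given below without each library in turn. Whole embryos were the labelled tissue, and all 5 muscle markers (Mhc, Mlc2, Act57B, Tm2 and Mef2) were counted in every library. The H3.2-WT libraries had 1.40% and 1.12% of their counted pairs in the 6 members, and the H3.2-K4R libraries 2.001% and 1.53%. The group means were 1.26% ± 0.199 and 1.77% ± 0.334 (SD, n = 2 each), and both H3.2-K4R libraries lay above both H3.2-WT libraries. This order of the summed share depended on Msp300. Msp300 alone took 0.483% and 0.376% of the H3.2-WT pairs. Its share of the H3.2-K4R pairs was 0.857% and 0.631%. With Msp300 left out of the sum the groups overlapped, as H3.2-K4R replicate 2 then fell below H3.2-WT replicate 1.

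Msp300 is the Drosophila nesprin, a giant protein with spectrin repeats that sits on the outer nuclear membrane, holds muscle nuclei in place and is also found at Z-discs. The H3.2-WT libraries held 163733 and 170991 of its counts, and the H3.2-K4R libraries 365724 and 233958. Scaled to library size, its level was 4805 and 3686 CPM in H3.2-WT, and 8580 and 6473 CPM in H3.2-K4R. Both H3.2-K4R libraries lay above both H3.2-WT libraries. This held for 3 of 6 members and for 23.6% of all tested genes, while the reverse order held for 0 of 6 members and for 27.5% of all tested genes. The log2 fold change was 0.83 ± 0.21 (SE; 95% interval 0.35 to 1.31), or 1.77-fold, with an edgeR adjusted p of 0.139. DESeq2 gave 0.85 with an adjusted p of 9.36e-04, and limma-voom 0.82 with 0.0576. Leaving out replicate 1 of H3.2-K4R gave 0.61 (edgeR adjusted p = 0.131) and leaving out its replicate 2 gave 1.02 (0.0893). Leaving out replicate 1 of H3.2-WT gave 1.04 (edgeR adjusted p = 0.221) and leaving out its replicate 2 gave 0.65 (0.566).

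The gene sls encodes Sallimus, the titin-like protein that spans from the Z-disc to the thick filament, and its shorter products are known as kettin. The H3.2-WT libraries stood at 2170 and 1799 CPM and the H3.2-K4R libraries at 3342 and 2351 CPM. The groups did not overlap, but H3.2-K4R replicate 2 lay closer to H3.2-WT replicate 1 than to the other H3.2-K4R library. The log2 fold change was 0.52 ± 0.20 (SE; 95% interval 0.05 to 0.99; edgeR adjusted p = 0.255). It was 0.24 without H3.2-K4R replicate 1 (edgeR adjusted p = 0.457) and 0.75 without H3.2-K4R replicate 2 (0.138), so each of these libraries moved its size. Leaving out replicate 1 of H3.2-WT gave 0.67 (edgeR adjusted p = 0.590) and leaving out its replicate 2 gave 0.39 (0.684).

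Projectin, the product of bt, is a second titin-like protein with a kinase domain, and it lies between Z-disc and thick filament in flight muscle and along thick filaments in other muscles. The H3.2-WT libraries stood at 5048 and 3861 CPM and the H3.2-K4R libraries at 6097 and 4870 CPM. H3.2-WT replicate 1 lay above H3.2-K4R replicate 2, so the groups overlapped. The log2 fold change was 0.30 ± 0.20 (SE; 95% interval -0.15 to 0.75; edgeR adjusted p = 0.487). Leaving out replicate 2 of H3.2-WT gave 0.12, and leaving out its replicate 1 gave 0.52. Leaving out replicate 1 of H3.2-K4R gave 0.13, and leaving out its replicate 2 gave 0.45. Among 93 tested genes of chromosome 4 the median was 0.02, with 50 above 0 and 0 past the edgeR threshold, and bt ranked 18 by fold change.

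Unc-89 encodes obscurin, an immunoglobulin-repeat kinase-like protein of the M-line, where thick filaments are held in register. The H3.2-WT libraries stood at 288 and 304 CPM and the H3.2-K4R libraries at 301 and 266 CPM. The groups overlapped, and the log2 fold change of -0.06 ± 0.14 was the lowest of the 6 members (SE; 95% interval -0.39 to 0.26; edgeR adjusted p = 0.867). That interval leaves room for a small difference either way and does not reach the value of Msp300.

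Zasp52 and Zasp66 are PDZ-domain proteins of the Z-disc that bind alpha-actinin, the crosslinker of thin filaments. Zasp52 had 924 and 818 CPM in H3.2-WT, and 1040 and 1033 CPM in H3.2-K4R. Its groups did not overlap, and its log2 fold change was 0.25 ± 0.14 (SE; 95% interval -0.08 to 0.58; edgeR adjusted p = 0.422). Zasp66 had 728 and 548 CPM in H3.2-WT, and 671 and 685 CPM in H3.2-K4R. Both H3.2-K4R values of Zasp66 fell between those of the H3.2-WT libraries, with a log2 fold change of 0.09 ± 0.17 (SE; edgeR adjusted p = 0.846). Zasp67, a related gene, had 0, 6, 0 and 0 counts in the 4 libraries and was not tested.

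**Figure D1:**
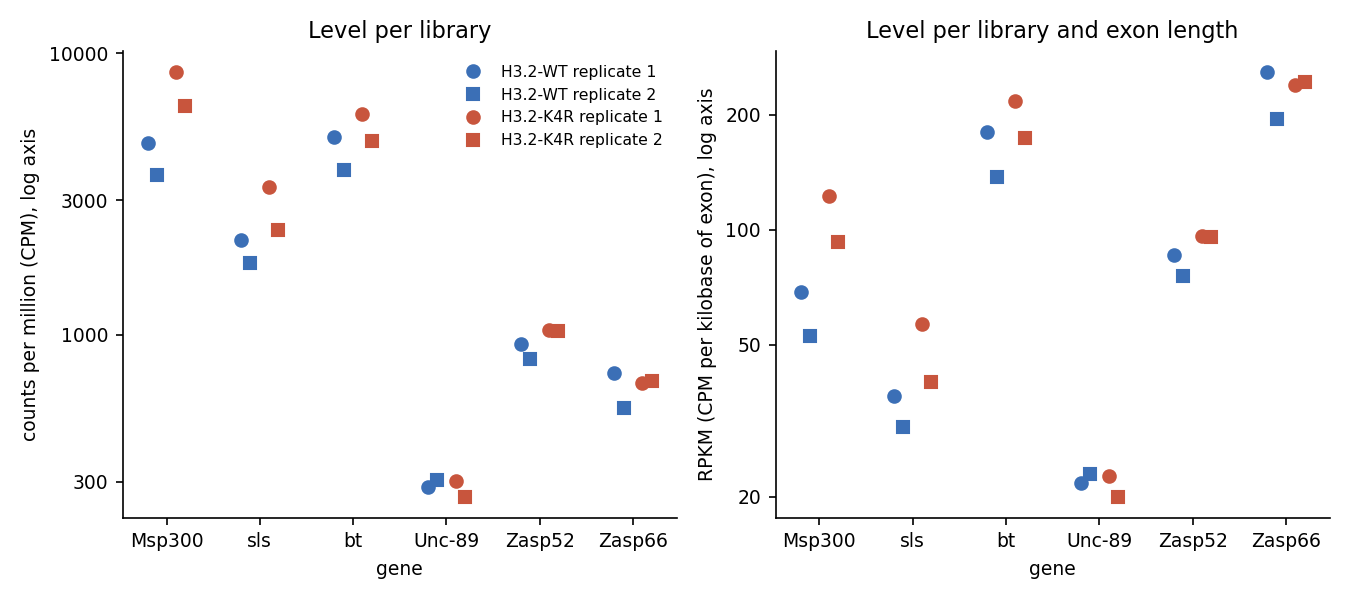
Level of each of the 6 genes in each of the 4 libraries, in CPM on the left and in CPM per kilobase of exon (RPKM) on the right, both on log axes; each point is 1 library. Both H3.2-K4R libraries lie above both H3.2-WT libraries for Msp300, sls and Zasp52, and the groups overlap for bt, Unc-89 and Zasp66.

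Levels of different genes were compared per kilobase of summed exons (RPKM). In H3.2-WT the order of the mean RPKM was Zasp66 at 227 ± 45.2, bt at 159 ± 29.95, Zasp52 at 80.8 ± 6.97, Msp300 at 60.8 ± 11.3, sls at 33.6 ± 4.45 and Unc-89 at 22.3 ± 0.854 (SD, n = 2 each). Neighbours in this order did not overlap across the H3.2-WT libraries. In H3.2-K4R Msp300 stood at 108 ± 21.3 and Zasp52 at 96.2 ± 0.502 RPKM, and these neighbours overlapped, since Msp300 was at 123 in replicate 1 and 92.7 in replicate 2. The other ranks were the same, with Zasp66 at 241 ± 3.43, bt at 196 ± 30.9, sls at 48.3 ± 11.9 and Unc-89 at 21.3 ± 1.87 RPKM. For scale, the muscle myosin heavy chain gene Mhc lay between 390 and 538 RPKM in the 4 libraries and the muscle actin gene Act57B between 4154 and 6761, while tmod, another thin filament gene, lay between 52.0 and 75.3. Actn, which encodes alpha-actinin, lay between 156 and 193 RPKM, above Zasp52 and below Zasp66 in each library. For members with exons that no single transcript joins, Msp300 above all, the summed length makes RPKM a low estimate of transcripts.

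Ratios of counts within a library do not depend on how libraries are scaled. Differences between libraries that go with exon length, described below, do not cancel in a ratio of genes that differ in length. Msp300 has 69801 exonic bases, bt 28019 and Mhc 8954. Msp300 had 0.952 and 0.955 counts per bt count in H3.2-WT, against 1.41 and 1.33 in H3.2-K4R. This ratio was nearly equal within each group and did not overlap between groups. For Msp300 over sls the ratio was 2.21 and 2.05 in H3.2-WT, against 2.57 and 2.75 in H3.2-K4R. For sls over bt it was 0.430 and 0.466, against 0.548 and 0.483. For Msp300 over Mhc it was 1.09 and 0.765, against 2.01 and 1.85, again without overlap. Zasp52 over Zasp66 gave 1.27 and 1.49, against 1.55 and 1.51. These pairs were chosen after the values were seen, and no exact permutation test (two-sided) of 2 against 2 libraries can reach a p below 0.333.

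The members also differed between libraries of the same group. Msp300 lay 0.38 higher on the log2 scale in H3.2-WT replicate 1 than in replicate 2, and 0.41 higher in H3.2-K4R replicate 1 than in replicate 2. The corresponding values were 0.27 and 0.51 for sls, 0.39 and 0.32 for bt, 0.18 and 0.01 for Zasp52, 0.41 and -0.03 for Zasp66, and -0.08 and 0.18 for Unc-89. In bt both differences between replicates exceeded the fold change between groups, in Unc-89 both were also larger in size, in Zasp66 that of H3.2-WT was, and in Msp300 neither was. In sls the difference of 0.51 within H3.2-K4R was close to the fold change of 0.52. Within the H3.2-K4R group the largest difference was that of sls.

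**Figure D2:**
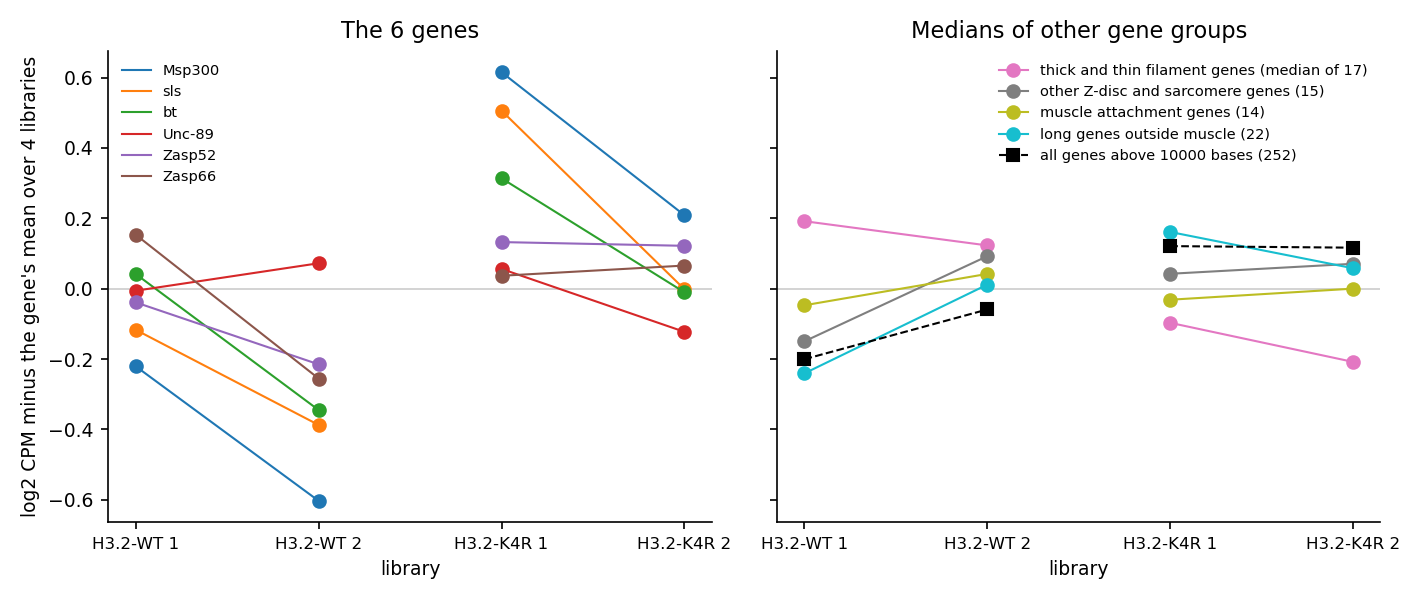
Log2 CPM of each library minus the gene's mean over the 4 libraries, for the 6 genes on the left and as the median of 5 other gene groups on the right; lines join libraries of the same group. Msp300, sls and bt are higher in replicate 1 than in replicate 2 of both groups, and the median of all genes above 10000 bases is lower in H3.2-WT replicate 1 than in replicate 2.

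Exon length moved with the fold change over the whole table. Among 5479 genes with a mean log2 CPM of 4 or more, the median log2 fold change was -0.34 in the class of up to 500 bases and 0.25 in the class above 10000 bases. Across these genes Spearman's rho between fold change and length was 0.399, given as a description because genes of a library are not independent. Length moved with differences between replicates too, with a rho of -0.410 for H3.2-WT replicate 1 over replicate 2 and of -0.199 for the same contrast in H3.2-K4R. Across the 6 members rho with the fold change between groups was 0.829, also a description over genes that share the same 4 libraries. With replicate 1 over replicate 2 it was 0.943 in H3.2-K4R and -0.0857 in H3.2-WT. Of the 247 other genes above 10000 bases, 1 had a larger fold change than Msp300, 19 had a larger one than sls, 93 than bt, 121 than Zasp52 and 230 than Unc-89. Zasp66, at 2812 bases, had 0.09 where the median of its own length class was -0.02.

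The gene above Msp300 in exon length was dp, at 71820 bases, which encodes a giant extracellular protein that ties epidermis and tendon cells to the cuticle. It had 1301 and 1331 CPM in H3.2-WT, and 2500 and 1868 CPM in H3.2-K4R. Its log2 fold change was 0.73 ± 0.18 (SE; edgeR adjusted p = 0.132), close to that of Msp300. Of 20 other genes with at least 20000 exonic bases, 19 had fold changes above 0, with a median of 0.28 and 0 past the edgeR threshold. Strn-Mlck, a titin-related kinase gene of muscle with 32768 bases, had 0.14 ± 0.19 (edgeR adjusted p = 0.773).

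With a smooth trend on exon length removed from each library, Msp300 had a log2 fold change of 0.31 (edgeR adjusted p = 0.408), sls 0.02, bt -0.07, Unc-89 -0.31, Zasp52 0.03 and Zasp66 0.11, with 0 of 6 past the threshold and a median of 0.02. At an unadjusted edgeR p under 0.05, 1 member, Unc-89, was then lower, and 1797 of 11562 tested genes passed in either direction. Its unadjusted p was 0.0381 (adjusted 0.290), against 0.0930 for Msp300 and 0.883 for sls. At the lengths of Msp300 and sls the trend rests on few genes, since 4 genes at this level had 40000 bases or more and 2 of them were members. Fitted without the 6 members, an alternative added after the data were seen, the trend left 0.33 for Msp300, 0.05 for sls and -0.06 for bt. Unc-89 had -0.32 in that fit (edgeR unadjusted p = 0.0378). The part of length in the fold changes beyond this was not tested.

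The longest members also differed between replicates of a group. In the genes above 10000 bases other than members, the median of H3.2-WT replicate 1 over replicate 2 was -0.13 on the log2 scale, while Msp300, sls and bt lay at 0.27 to 0.39. Of the 247 such genes, 3 had a larger value than Msp300 in that contrast, 5 had a larger one than sls and 2 than bt. Shorter members did so too, with 2 of the 247 larger than Zasp66 (0.41) and 12 larger than Zasp52 (0.18). For Unc-89 (-0.08) 93 were larger. For H3.2-K4R replicate 1 over replicate 2 the median was 0.00. Msp300, sls and bt lay at 0.41, 0.51 and 0.32, with 10, 3 and 13 of the 247 genes larger. There 140 were larger than Zasp66, 120 than Zasp52 and 43 than Unc-89.

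**Figure D3:**
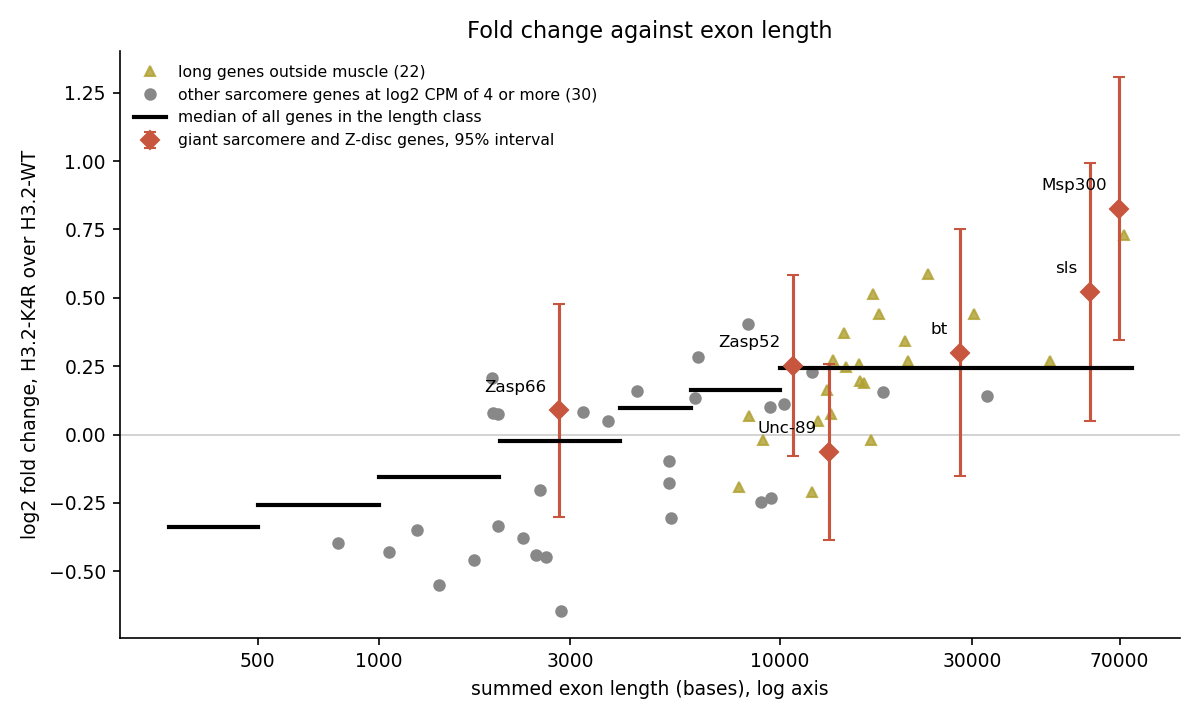
Log2 fold change (H3.2-K4R over H3.2-WT) against summed exon length on a log axis, for the 6 genes with their 95% intervals, 30 other sarcomere genes with a mean log2 CPM of 4 or more and 22 long genes outside muscle; black bars are medians of all genes with a mean log2 CPM of 4 or more in each length class. The class medians run from -0.34 to 0.25, and Msp300 at 0.83 and dp at 0.73 are the highest points drawn; Act79B (1.20) and TpnC41C (-1.29), both under that level, are not drawn.

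Genes that work with the members in muscle were described by list, with no test of a difference from the members. Of 17 tested thick and thin filament genes, 0 passed the edgeR test (with unadjusted p under 0.05, 2 higher and 8 lower; by DESeq2 1 of each). In 14 of them the fold change was negative, with a median of -0.33 where all tested genes had -0.02 and the 6 members 0.28. Mhc had -0.25 ± 0.17, the tropomyosin gene Tm2 -0.45 ± 0.14, the troponin C gene TpnC73F -0.43 ± 0.16, and tmod, which encodes the thin filament capping protein tropomodulin, 0.41 ± 0.14 (SE, edgeR adjusted p of 0.186 to 0.504). Their exon totals ran from 791 to 9463 bases, and their median length of 1989 bases was near that of all tested genes (1902.5 bases). With the length trend removed their median fold change was -0.26. The summed level of the list was 39543 and 36832 CPM in H3.2-WT, and 32285 and 30382 CPM in H3.2-K4R.

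Of 15 other Z-disc and sarcomere genes, 0 passed by edgeR (with unadjusted p under 0.05, 0 higher and 2 lower; by DESeq2 1 lower), 12 had positive fold changes and the median was 0.11. With the length trend removed this median was -0.010, and with libraries scaled on genes of 3000 bases or more it was 0.0067. The muscle LIM protein genes Mlp60A and Mlp84B had -0.65 ± 0.17 and -0.44 ± 0.14, and Actn had -0.18 ± 0.14 (edgeR adjusted p of 0.151 to 0.588). DAAM, a formin gene needed for sarcomere assembly, had 0.28 ± 0.15. Over the 32 tested sarcomere genes other than the members, rho between fold change and exon length was 0.520, and with H3.2-WT replicate 1 over replicate 2 it was -0.393. In the 21 sarcomere genes of 3000 bases or more, members included, rho was 0.517 for the fold change, 0.608 for the replicates of H3.2-WT and 0.556 for those of H3.2-K4R. In the 17 sarcomere genes under 3000 bases, Zasp66 included, the rho of the fold change was 0.03 and 12 of 17 had fold changes below 0.

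Muscle attachment genes, which encode integrins and the proteins that bind them, had a median of -0.02 over 14 tested genes, with 0 past the edgeR threshold (0 at an unadjusted p under 0.05; 0 by DESeq2). The integrin beta gene mys had 0.18 ± 0.15, parvin -0.20 ± 0.16 and the talin gene rhea 0.16 ± 0.16. Msp300 acts together with SUN-domain proteins and other nesprins at the nucleus, in what is called the LINC complex. Over 8 tested genes of this complex and of nuclear position the median was 0.06 and 0 passed (0 at an unadjusted p under 0.05; 0 by DESeq2). Among them klar, which encodes another KASH-domain protein, had 535 and 628 CPM in H3.2-WT, and 660 and 714 CPM in H3.2-K4R. Its log2 fold change was 0.24 ± 0.15 (SE; edgeR adjusted p = 0.463). The SUN-domain gene koi had 0.15 ± 0.15, the microtubule-binding ens 0.26 ± 0.13 and the lamin gene LamC -0.16 ± 0.14.

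The 6 tested genes of calcium handling had a median of 0.14 and 0 passed by edgeR (0 at an unadjusted p under 0.05; 0 by DESeq2). The calcium sensor gene Stim had 0.23 ± 0.17, the junctophilin gene jp 0.17 ± 0.14 and the inositol trisphosphate receptor gene Itp-r83A 0.22 ± 0.19. Of 10 muscle transcription factor and regulator genes 0 passed by edgeR (1 higher with unadjusted p under 0.05; by DESeq2 1 higher), and the median was 0.03. This gene was sr, which encodes the tendon cell factor Stripe and not a factor of the muscle fibre. It had 162 and 176 CPM in H3.2-WT, and 279 and 295 CPM in H3.2-K4R, with a log2 fold change of 0.76 ± 0.14 (SE; edgeR adjusted p = 0.0683). Mef2, the main activator of muscle genes, had 279 and 283 CPM in H3.2-WT, and 282 and 260 CPM in H3.2-K4R, and a fold change of -0.05 ± 0.13. The myogenic factor gene nau had -0.50 ± 0.29 and the cofactor gene sd 0.34 ± 0.16. Of 9 myoblast fusion genes 0 passed by edgeR (1 higher with unadjusted p under 0.05; by DESeq2 0), with a median of 0.15. Among them rols, an adaptor of fusing myotubes, had 0.49 ± 0.19, the founder cell receptor gene kirre 0.40 ± 0.17 and mbc, which acts on actin at the fusion site, -0.23 ± 0.14.

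Over 22 long genes outside muscle, of 7896 to 71820 bases, the median was 0.25 and 18 were above 0, with 0 past the edgeR threshold (6 higher with unadjusted p under 0.05; by DESeq2 4 higher). After dp, the lowest p belonged to the microtubule-associated futsch at 0.59 ± 0.15 and the teneurin gene Ten-a at 0.51 ± 0.16 (edgeR adjusted p = 0.149 and 0.194). Without the length trend the median of these genes was -0.05, and that of the 6 members 0.02.

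Markers of other cell types were measured beside the members. Of 7 neuron markers 7 had positive fold changes (median 0.20), where 48.1% of all tested genes did. Their summed level was 2422 to 2504 CPM in H3.2-WT and 2931 to 3019 CPM in H3.2-K4R. The median exon total of these markers was 9454 bases, and with the length trend removed their median fold change was 0.047. The sodium channel gene para had 0.47 ± 0.16, Syx1A 0.43 ± 0.14 and elav 0.29 ± 0.18. All 3 glia markers had negative ones (median -0.39), with 192 to 230 CPM in H3.2-WT and 159 to 160 CPM in H3.2-K4R (moody -0.43 ± 0.17, repo -0.39 ± 0.19, Eaat1 -0.38 ± 0.15). Epidermis and cuticle markers had a median of 0.11 over 6 genes (3762 to 3845 and 3697 to 4032 CPM), gut markers 0.11 over 4 genes (525 to 568 and 499 to 642 CPM), and hemocyte and fat body markers -0.09 over 5 genes (2119 to 2638 and 1577 to 1985 CPM). Most of the hemocyte and fat body sum was vkg, at 1986 and 2476 CPM in H3.2-WT, and 1825 and 1461 CPM in H3.2-K4R. Fbp1 of that list had only 0, 3, 11 and 11 counts in the 4 libraries. The 2 trachea markers found in the table had a median of -0.41 (83.5 to 91.6 and 68.3 to 83.1 CPM). The lowest p in the epidermis list was that of ple, the tyrosine hydroxylase gene, at 0.67 ± 0.17, followed by knk at 0.33 ± 0.18 and Ddc at -0.27 ± 0.15. In the other lists GATAe had -0.27 ± 0.15, fkh 0.14 ± 0.14, Myo31DF 0.08 ± 0.14, Hml 0.71 ± 0.23, Pxn -0.44 ± 0.22, vkg -0.44 ± 0.18, btl -0.67 ± 0.29 and trh -0.16 ± 0.16. Adult female markers were near the lower limit of counting at 1.49 to 3.37 CPM in sum over all 4 libraries, with Cp36 at 0 counts in each and no fold change given for Yp2, Yp3 and Cp38. By edgeR 0 genes of these lists passed (4 higher and 3 lower with unadjusted p under 0.05; 3 higher by DESeq2), and the part of cell composition in the values of the members was not tested.

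By likeness to the median profile of the members over the 4 libraries, the nearest of 2580 named genes with a mean log2 CPM of 5 or more were Jra, Nup358, Frq1, ssx and Hsromega. Their root mean square distance was 0.03 to 0.05 on the log2 scale, below that of each member, which ran from 0.06 for bt to 0.28 for Msp300. Their log2 fold changes were 0.23 to 0.29, and 0 of the 5 passed the edgeR threshold. Because the 5 were picked by this distance, its small size and fold changes near the median of the members follow from the choice.

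The fold changes of the 6 genes were recomputed under 12 other settings. Msp300 stayed between 0.31 and 1.04 and sls between 0.02 and 0.75, both above 0 in all 12. Msp300 passed the threshold in 3 of them (no filter, DESeq2 and replicate block) and sls in 2 (no filter and replicate block). Over all genes these settings called 979 of 13869 with no filter, 665 of 11562 with DESeq2 and 1366 of 11562 with the block. Zasp52 lay between 0.03 and 0.36 and was above 0 in all 12, while bt and Zasp66 were above 0 in 10 and Unc-89 in 1, and none of these 4 passed in any.

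**Figure D4:**
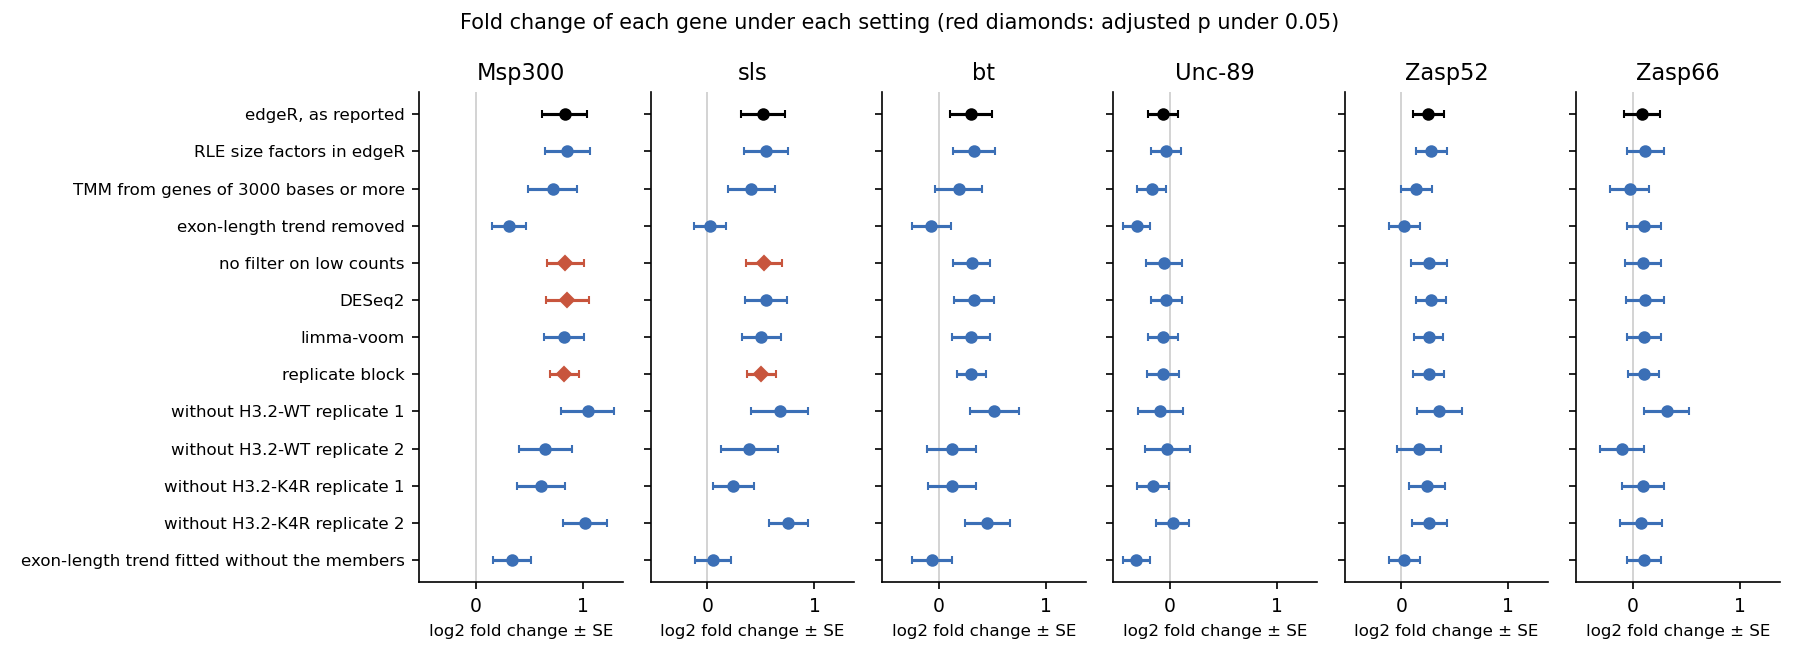
Log2 fold change (H3.2-K4R over H3.2-WT) and its standard error for each of the 6 genes, as reported (top) and under 12 other settings; red diamonds mark an adjusted p under 0.05. Msp300 ranges from 0.31 to 1.04 and passes in 3 settings, sls passes in 2, and the other 4 genes pass in none.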

How the data were processed

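Read pairs were counted over the exons of each gene with featureCounts 2.0.6 in build dm6, per the file headers, by strand (setting 1) and with no option for multi-mapping reads set. These deposited counts are not normalized. STAR 2.7.7a, SAMtools 1.9 and Subread 2.0.6 are named in the processing notes of the submitters. The same deposited file gives the summed exon length used here, in bases. Columns named HWT were assigned to H3.2-WT, since no other group has wild-type histone. The 4 columns used are all per-sample columns.

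Counts were tested in R 4.3.3 with edgeR 4.0.16: filterByExpr (minimum count 10, minimum total 15), TMM, the quasi-likelihood test with no replicate block, and adjustment by Benjamini-Hochberg at 0.05 over 11562 genes. Standard errors (SE) come from the F statistic, and 95% intervals use its degrees of freedom. CPM uses TMM library sizes. Depth of at least 9597 counts per member and library makes counting error small beside the SE of the members' log2 fold changes (0.14 to 0.21). It is not small beside every replicate difference, as Zasp52 differed by 0.01 within H3.2-K4R. Alternatives were RLE size factors computed by edgeR, DESeq2 1.42.0, limma-voom 3.58.1 and TMM from genes of 3000 bases or more. Others were removal of the length trend (loess of log2 CPM deviation on log2 length, span 0.3, prior count 2), no filter, a replicate block, and each library left out. Tests were tried on simulated data. The members, the gene lists and the naming rule were chosen with earlier results of these data known. The rule names all 6 members, the lowest-p genes of each list (up to 3) and 5 genes of like profile; Mhc, Act57B, Actn, Mef2, koi, Zasp67 and Strn-Mlck were added after their values were seen. Transcripts are from the Ensembl annotation in dm6 coordinates, and symbols were matched through RefSeq. The promoter motif search could not be run, and sequences were not used here.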

Additional observations from a re-analysis of the deposited data

How the results depend on the processing

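The replicate numbers are not stated to mark a shared batch, and the replicate differences of the groups correlated at r = 0.106 across genes over 2 pairs. With the replicate number as a block, Msp300 had 0.82 (adjusted p = 5.21e-08) and sls 0.50 (0.00453), both past the threshold. The block raised the calls over all genes to 608 higher and 758 lower, and over the 132 genes of the fixed lists to 12 higher and 9 lower. Without a filter Msp300 had 0.83 (1.00e-04) and sls 0.53 (0.0316), with 452 and 527 calls (6 and 2 in the lists). In the block and no-filter fits the p-values of Msp300 and sls were close to those of a normal distribution for fold change over SE. Such p-values treat the spread between libraries as known, whereas the main fit used 7.85 degrees of freedom. DESeq2 gave Msp300 0.85 (9.36e-04), with 358 and 307 calls (9 and 2). Calls were 101 and 72 with limma-voom (1 higher in the lists), 104 and 32 with the length trend removed, and 9 and 10 with TMM from genes of 3000 bases or more. That scaling moved the median of all genes from -0.02 to -0.13 and Zasp66 to -0.028. The length trend turned bt to -0.070 (-0.065 when fitted without the members). The cause of these differences between settings was not tested.

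With TMM from genes of 3000 bases or more, medians were -0.45 for thick and thin filament genes, -0.13 for attachment, -0.049 for LINC and nuclear position, -0.075 for transcription factors, 0.041 for fusion, 0.091 for neuron, 0.0082 for epidermis, 0.0017 for gut and -0.20 for hemocyte and fat body. With the length trend removed they were -0.26 for thick and thin filament genes, -0.068 for attachment, -0.046 for calcium handling, 0.058 for fusion, -0.052 for long genes outside muscle and 0.047 for neuron. With no floor on level, the median of the shortest length class moved from -0.34 to -0.15 and that of the next from -0.26 to -0.12.

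With each library left out in turn, calls ranged from 1 to 251 higher and from 0 to 587 lower, and in the lists from 0 to 1 and from 0 to 3. The fewest were without H3.2-WT replicate 2 and the most without H3.2-K4R replicate 1. Fold changes ranged from -0.16 to 0.023 for Unc-89, above 0 without H3.2-K4R replicate 2, and from -0.10 to 0.32 for Zasp66, below 0 without H3.2-WT replicate 2. Medians ranged from -0.40 to -0.28 for thick and thin filament, -0.036 to 0.22 for other Z-disc, -0.049 to 0.055 for attachment, -0.034 to 0.15 for LINC, -0.025 to 0.26 for calcium handling, 0.010 to 0.18 for transcription factor, 0.10 to 0.18 for fusion, 0.13 to 0.39 for long, 0.17 to 0.28 for neuron, 0.047 to 0.21 for epidermis, -0.16 to 0.11 for gut, -0.26 to -0.055 for hemocyte, -0.57 to -0.25 for trachea and -0.48 to -0.28 for glia genes. The range of -3.85 to 0.46 for adult female genes is not read further. These genes were near the lower limit of counting, as with Yp1 at 15, 0, 0 and 17 counts.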
